A study of Mus musculus with 30 samples.

Results

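The genes described here are 34 genes that textbooks list as markers of astrocytes: Aqp4, Gfap, Slc1a2, Slc1a3, Aldh1l1, Gja1, Gjb6, Aldoc, Sox9, S100b, Fgfr3, Slc4a4, Atp1b2, Glul, Apoe, Clu, Mlc1, Ntsr2, Slco1c1, Acsbg1, Ppp1r3c, Fabp7, Gli3, Slc7a10, Cldn10, Hes5, Bcan, F3, Id4, Kcnj10, Mt1, Mt2, Sparcl1 and Agt. They were chosen by name, and all 34 were found by symbol among the 55335 genes of the count tables. They were read in RNA that had been pulled down from neurons of the nucleus accumbens, a forebrain region of reward and motivation, in female mice. The mice carried a Cre-dependent, HA-tagged ribosomal protein (RiboTag, "RT") that is switched on by Cre in 1 neuron class: D1-Cre-RT for medium spiny neurons with the D1 dopamine receptor, and A2A-Cre-RT for those with the D2 receptor, whose marker is the adenosine A2A receptor. These are called the D1 and the D2 libraries below.

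Every mouse of the 6 groups carried the tagged ribosome and 1 of the Cre lines, and no wild-type or Cre-negative library was used here. In each line, Control mice were set beside mice exposed to CWDS, chronic witness defeat stress, where a mouse repeatedly watches the defeat of another, and classed as Resilient or Susceptible from social interaction afterwards. The groups are therefore D1 Control, D1 Resilient, D1 Susceptible, D2 Control, D2 Resilient and D2 Susceptible, with 5 libraries each, 30 in all. Each library pooled tissue punches of 4 mice with similar social interaction ratios, taken 24 h after the test, and 10 ng of immunoprecipitated RNA went into it. The replicate number only names a pool, and the p-values measure the spread between these pools.

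Astrocytes take up glutamate and potassium that neurons release, turn glutamate into glutamine, supply lactate and lipids, and form a gap-junction network whose endfeet wrap blood vessels. Neither Cre line is meant to act in astrocytes, so their messages are not a target of the pull-down. Messages of untagged cells can be carried along in such a pull-down, and the levels below are levels in that RNA. In bulk RNA, fewer cells of a type and less RNA per cell cannot be told apart.

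Total counts over genes ran from 28996168 to 65882152 per library. Levels are given as counts per 1000000 counts of the library (CPM) after the scaling of edgeR, and 3 counts corresponded to between 0.0430 and 0.304 CPM depending on the library. The labelled neuron class was checked with genes listed for it: averaged over the 3 states, 6 of 7 tested D1-neuron genes were higher in D1 libraries and 5 of 5 D2-neuron genes were lower there, among them Drd1 at a log2 difference of 2.33 and Adora2a at -2.73. D2 Resilient replicate 5 stood farthest from its group on that check, with a summed D1-neuron level of 1858 CPM against 281 to 1236 in the other D2 libraries and 1736 to 2609 in D1 libraries. Its summed D2-neuron level was 4867 CPM against 7287 to 12799 in the other D2 libraries. D2 Control replicate 5 came next on both, at 1236 CPM for D1-neuron and 7287 CPM for D2-neuron genes. It also had the highest interneuron sum of the D2 libraries, 314 CPM. D1 Control replicate 1, D1 Susceptible replicate 1 and D2 Susceptible replicates 1 and 2 also differed from their groups in ways given below, and results that rest on these libraries are given with and without them.

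All 34 genes passed the filter on low counts. Agt, which encodes the precursor of the angiotensin peptides, was the scarcest, at 0.258 ± 0.183 CPM (SD, n = 15) in D1 libraries and 0.424 ± 0.259 CPM (SD, n = 15) in D2 libraries. It had 0 counts in D2 Susceptible replicate 1, and it was at or under 3 counts in 2 libraries. Per kb of exon, the highest mean levels in D1 libraries were 88.1 CPM per kb for Sparcl1, 77.8 for Glul and 64.9 for Id4. In D2 libraries the order was Glul at 172 CPM per kb, Apoe at 154 and Id4 at 143, with Sparcl1 at 71.9.

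Summed over the 34 genes, the level was higher in D2 than in D1 libraries in every state. The sum was 1896 ± 524 CPM in D1 Control, 1573 ± 40.2 CPM in D1 Resilient and 1840 ± 233 CPM in D1 Susceptible (SD, n = 5 each). In D2 libraries it was 3000 ± 352 CPM in Control, 2917 ± 601 CPM in Resilient and 3042 ± 151 CPM in Susceptible (SD, n = 5 each). The ranges overlapped: D1 libraries ran from 1529 to 2828 CPM and D2 libraries from 1853 to 3445 CPM. D1 Control replicate 1 gave the highest D1 sum and D2 Resilient replicate 5 the lowest D2 sum.

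**Figure D1:**
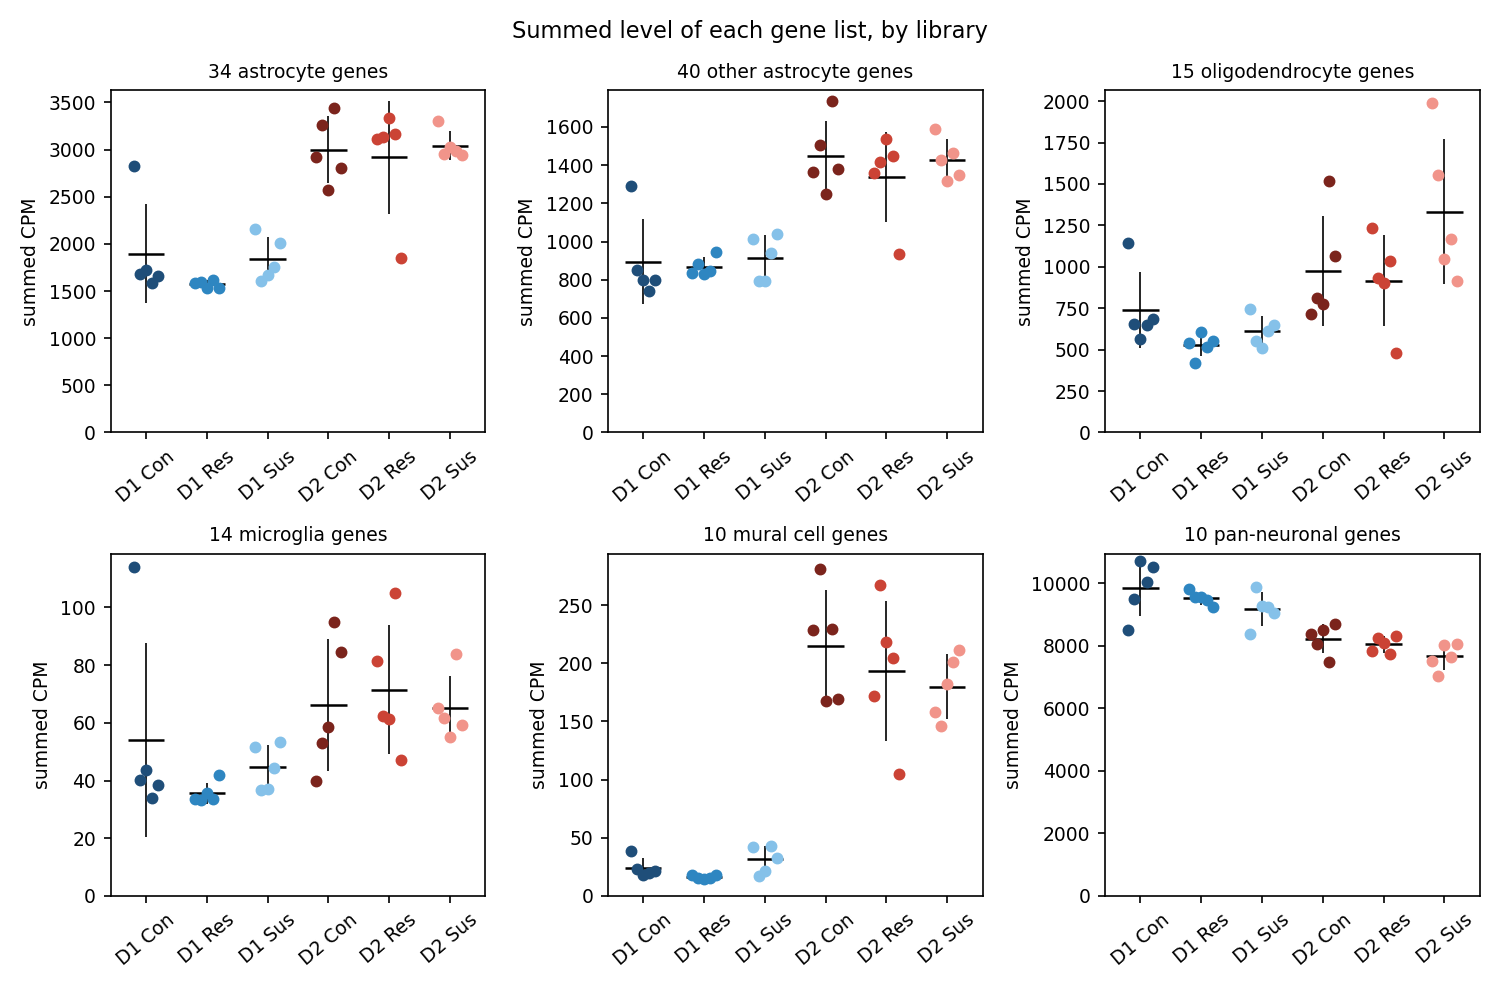
Summed CPM of 6 gene lists in each of the 30 libraries (points), by group on the horizontal axis, with bars at the mean and whiskers of 1 SD over 5 libraries. For the 34 astrocyte genes the D1 groups averaged 1573 to 1896 CPM and the D2 groups 2917 to 3042 CPM, with D1 Control replicate 1 high and D2 Resilient replicate 5 low.

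Gene by gene, the D1 and D2 libraries were compared with edgeR's quasi-likelihood test, in which a difference is called where its p, after Benjamini-Hochberg adjustment across the 19368 genes tested, is under 0.05. In Control, 18 of the 34 genes were lower in D1 and 0 were higher, and 25 had an unadjusted p under 0.05. Over all genes tested, 8.3% were called in that comparison, 4.8% lower and 3.51% higher. The median log2 difference of the 34 genes was -1.02, against -0.0028 over all genes. Among Resilient libraries 23 genes were lower and 0 higher, where 6.65% of all genes were called (3.9% lower, 2.75% higher), with a median of -1.43. Among Susceptible libraries 24 genes were lower and Sparcl1 was higher, where 23.9% of all genes were called (13.4% lower, 10.5% higher), with a median of -1.18. With the 3 states averaged, 27 genes were lower and 1 was higher, where 29.3% of all genes were called (15.5% lower, 13.8% higher), with a median of -1.16. Over all genes the median of these last 3 comparisons was -0.0035, 0.0167 and 0.0045. The count of 18 in Control rose when the library D1 Control replicate 1 was left out. Then 27 genes were lower, with a median of -1.33, where 9.07% of all genes were called. That gained 9 genes and lost 0. Leaving out D1 Control replicate 2, 3, 4 or 5 instead gave 11, 9, 9 and 8 genes, where 7.15%, 4.95%, 5.63% and 5.56% of all genes were called. Leaving out D2 Control replicate 4 gave 10, a count that is not set against the share of all genes here.

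The same genes were called lower in all 3 states for 16 members: Acsbg1, Aldoc, Apoe, F3, Fgfr3, Gfap, Gja1, Gjb6, Glul, Id4, Mlc1, Mt2, Ntsr2, Slc1a3, Slco1c1 and Sox9. A further 7 were called in 2 states, namely Aqp4, Bcan, Cldn10, Fabp7, Mt1, Ppp1r3c and S100b, and 3 in 1 state, namely Aldh1l1, Gli3 and Kcnj10. The other 8, Agt, Atp1b2, Clu, Hes5, Slc1a2, Slc4a4, Slc7a10 and Sparcl1, were called lower in 0 states. In the averaged comparison edgeR left Agt, Atp1b2, Clu, Hes5, Slc1a2 and Slc4a4 uncalled. The alternative fit, limma voom with quality weights, called 33 of the 34 there, with Slc4a4 the exception, and DESeq2 called 29, with Hes5 added to those of edgeR. Over all genes, limma voom called 39.8% and DESeq2 32.5% in that comparison.

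**Figure D2:**
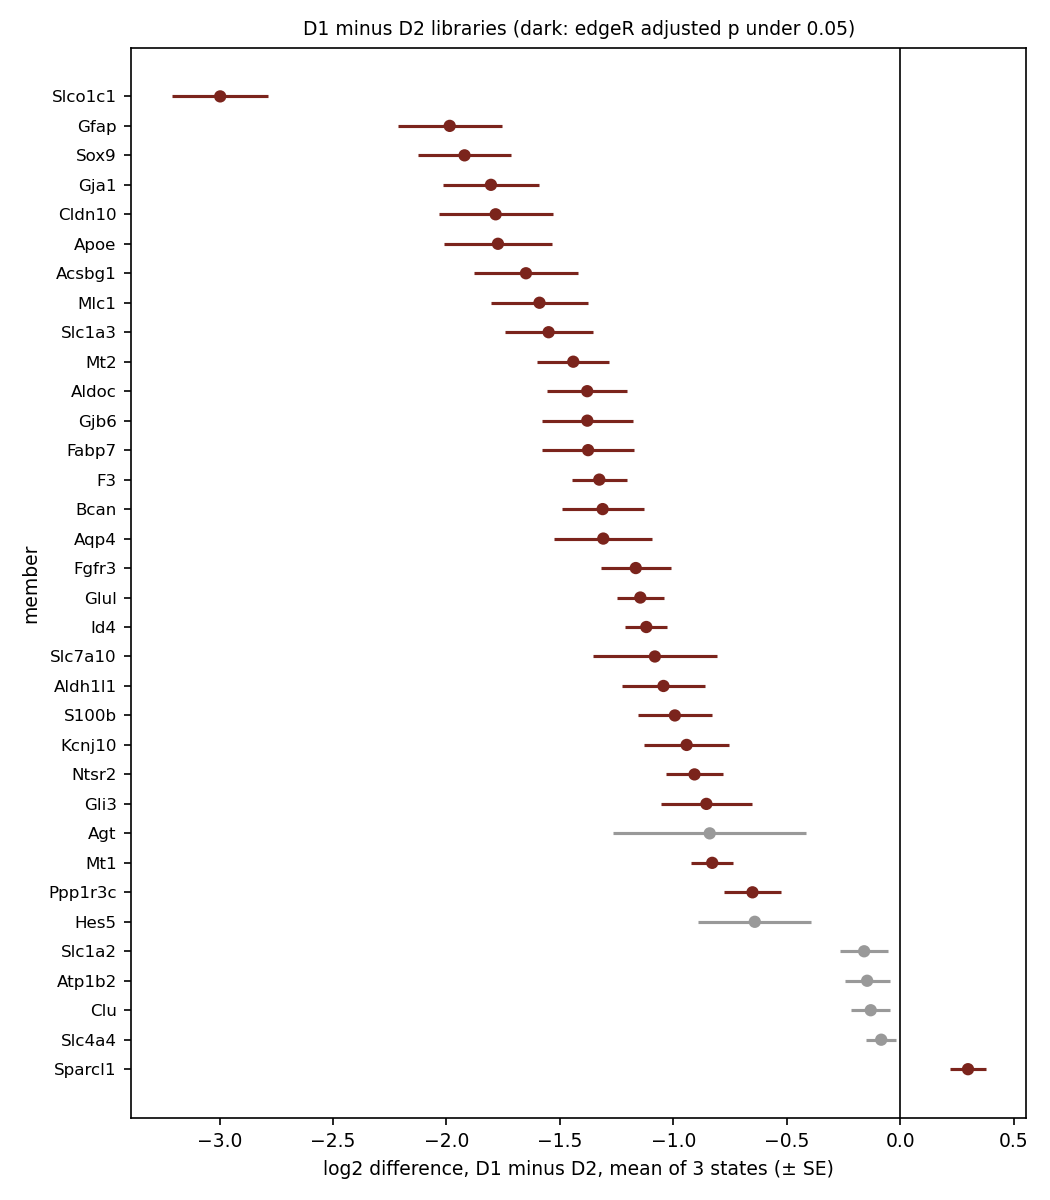
Difference between D1 and D2 libraries averaged over the 3 states for each of the 34 genes, on a log2 scale (points) with its standard error (whiskers); dark points have an edgeR adjusted p under 0.05. Values run from -3.00 for Slco1c1 to 0.30 for Sparcl1, and 27 dark points lie below 0.

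The test was set beside the libraries themselves. In Control, 8 genes had every D2 library above every D1 library, namely Gfap, Sox9, Glul, Slco1c1, F3, Id4, Mt1 and Mt2, where 6.05% of all genes did so (5.62% had D1 above D2, 0 of them members). The corresponding count was 22 members in Resilient, where 5.01% of all genes did so (4.69% the other way, 0 members). In Susceptible it was 19, where 4.12% of all genes did so, and Sparcl1 was the 1 member with every D1 library above, where 4.8% of all genes were. Over all 15 D1 and 15 D2 libraries, Slco1c1 and Id4 were the 2 members without overlap, where 0.666% of all genes were (0.516% the other way, 0 members). Leaving out D1 Control replicate 1 and D2 Resilient replicate 5 raised that count to 14, where 1.42% of all genes did so (0.862% the other way, 0 members). Control without D1 Control replicate 1 gave 26 members (8.82% of all genes, and 8.72% the other way with 0 members). Resilient without D2 Resilient replicate 5 gave 30 members (7.96% of all genes, and 7.1% the other way with 0 members).

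**Figure D3:**
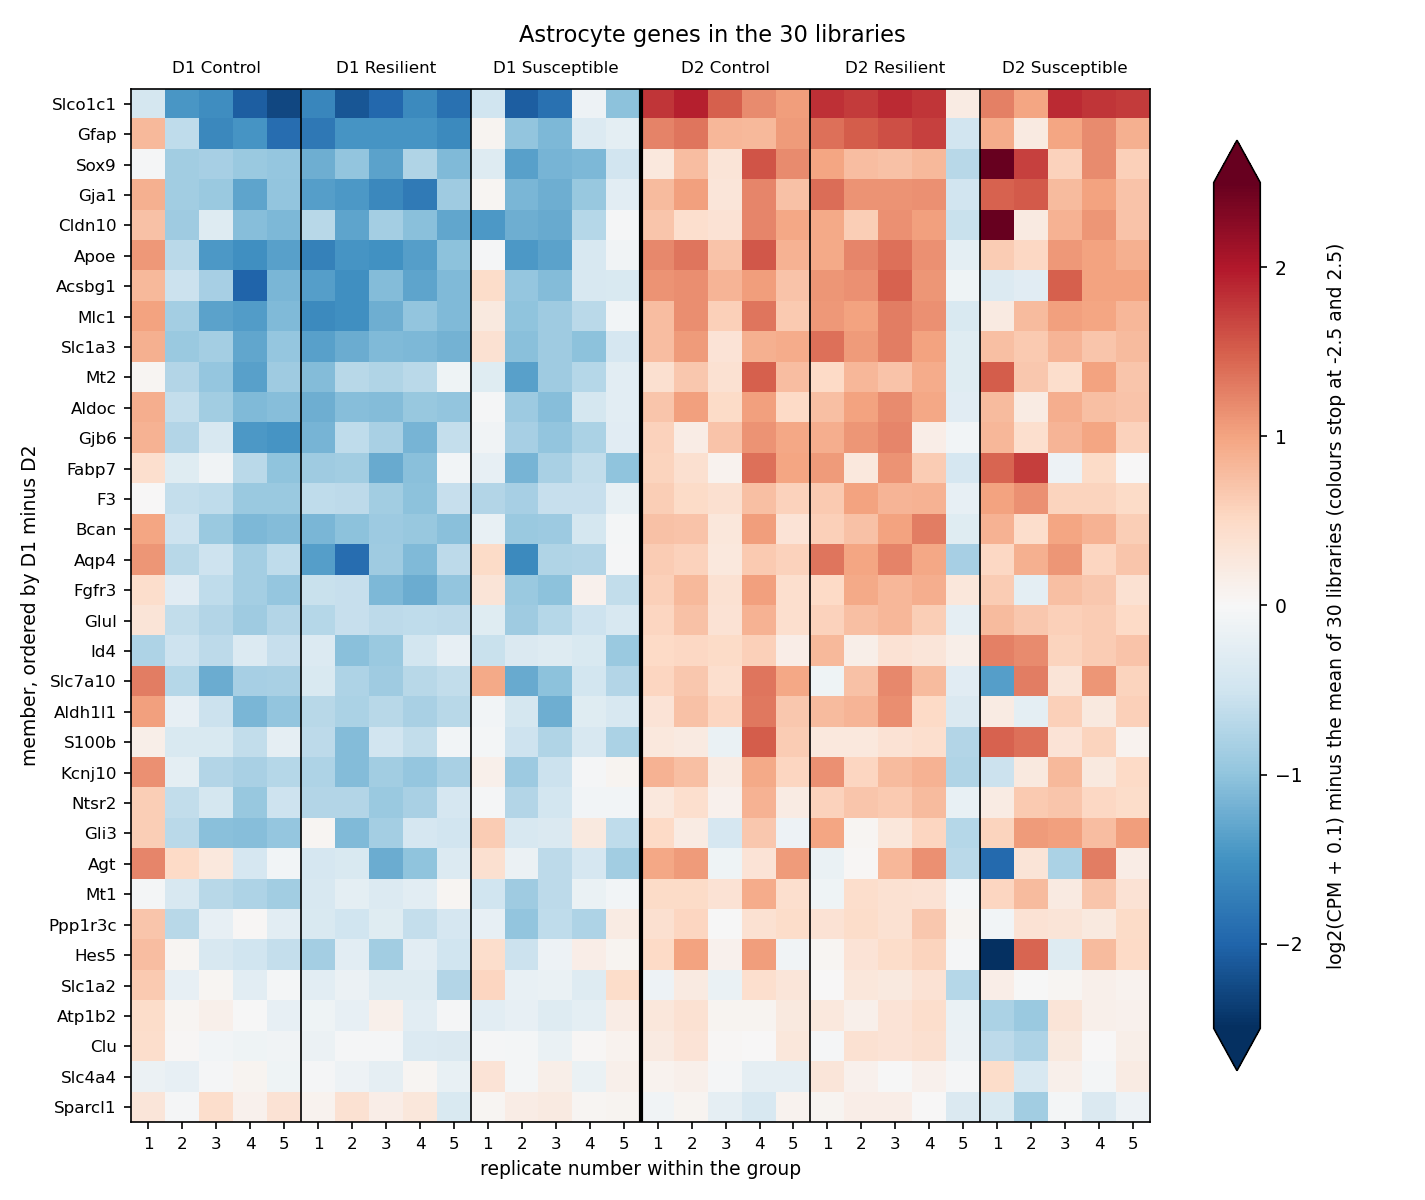
Level of each of the 34 genes (lines) in each of the 30 libraries (columns, by group) as log2(CPM + 0.1) minus the gene's mean over the 30 libraries, with colours that stop at -2.5 and 2.5; genes are ordered by their D1 minus D2 difference. D1 Control replicate 1 stands out as high among the D1 columns and D2 Resilient replicate 5 as low among the D2 columns. Genes at the other end of the order, such as Slc4a4 and Sparcl1, differ less between the D1 and D2 columns, with Sparcl1 higher in D1.

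Of the 6 transporter genes, 3 were lower in D1 libraries with the states averaged and 3 were not called by edgeR, with a median log2 difference of -0.62. Slco1c1 encodes a carrier for thyroid hormone, which endothelial cells of brain vessels express as well as astrocytes, and lies on chromosome 6, 141524368 to 141570177, plus strand (all gene positions are GRCm38). It had the largest difference of the 34 genes. In D1 Control its level was 6.55, 3.18, 2.96, 2.07 and 1.77 CPM, and in D2 Control it was 31.0, 34.7, 25.3, 20.3 and 18.6 CPM. Every D2 library, at 10.3 to 34.7 CPM, was above every D1 library, at 1.77 to 8.10 CPM. The log2 difference was -2.96 (SE 0.37, edgeR adjusted p 2.80e-06) in Control and -3.00 (SE 0.21, edgeR adjusted p 9.65e-12) with the states averaged.

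Of the glutamate transporters, Slc1a3 was lower in D1 and Slc1a2 was not called. Slc1a3 encodes GLAST and lies on chromosome 15, 8634124 to 8710764, minus strand, and Slc1a2 encodes GLT-1, the main glutamate carrier of the adult forebrain, on chromosome 2, 102658659 to 102790784, plus strand. Slc1a3 stood at 63.1, 17.9, 19.1, 13.8 and 17.4 CPM in D1 Control and at 58.4, 71.5, 43.7, 63.2 and 65.6 CPM in D2 Control. The first D1 pool lay within the D2 range and the other 4 lay far under it. Its log2 difference was -1.20 (SE 0.33, edgeR adjusted p 0.0218) in Control, -1.81 without D1 Control replicate 1 (edgeR adjusted p 1.88e-05) and -1.55 (SE 0.19, edgeR adjusted p 5.77e-07) averaged. Slc1a2 stood at 553, 302, 364, 293 and 340 CPM in D1 Control and at 321, 411, 311, 466 and 430 CPM in D2 Control, so that the classes overlapped across most of their range. Its log2 difference was -0.07 (SE 0.19, edgeR adjusted p 0.918) in Control and -0.16 (SE 0.11, edgeR adjusted p 0.286) averaged. When D1 Control replicate 1, D2 Resilient replicate 5, D1 Susceptible replicate 1 and D2 Susceptible replicates 1 and 2 were all left out, the averaged value for Slc1a2 was -0.32 and was called by edgeR.

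Among the other transporters, Slc7a10, a carrier of small neutral amino acids including D-serine, was lower in D1 with the states averaged (-1.08, edgeR adjusted p 0.00305). Lrp3 lies on the opposite strand at its locus with 58093 counts over the 30 libraries against 5251 for Slc7a10, and the strand setting of the counting is not given in the sources used here, so its level is uncertain. Slc4a4, the sodium bicarbonate cotransporter, averaged 106, 104 and 119 CPM in D1 Control, Resilient and Susceptible and 109, 120 and 119 CPM in the matching D2 groups. Atp1b2, a beta subunit of the sodium pump, averaged 76.8, 67.3 and 64.1 CPM in those D1 groups and 83.1, 83.0 and 64.9 CPM in the D2 groups. Neither was called by edgeR, at averaged log2 differences of -0.08 (edgeR adjusted p 0.367) for Slc4a4 and -0.15 (edgeR adjusted p 0.292) for Atp1b2, while limma voom called Slc1a2 and Atp1b2 lower.

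The 3 genes of water, potassium and ion balance at the membrane were all lower in D1 libraries with the states averaged, with a median log2 difference of -1.31. Aqp4 encodes the water channel of astrocyte endfeet. It stood at 12.2, 3.46, 3.92, 3.09 and 3.59 CPM in D1 Control and at 8.87, 8.49, 6.84, 9.01 and 8.50 CPM in D2 Control. D1 Control replicate 1 was above every D2 Control pool, and the other 4 D1 pools were below every one of them. Its log2 difference in Control was -0.66 (SE 0.37, edgeR adjusted p 0.338) and was not called, and without D1 Control replicate 1 it was -1.24 (SE 0.34, edgeR adjusted p 0.0162). Averaged over states it was -1.31 (SE 0.22, edgeR adjusted p 2.38e-05). Kcnj10, the Kir4.1 potassium channel, averaged 10.9 ± 6.10 CPM in D1 and 20.4 ± 6.29 CPM in D2 libraries (SD, n = 15 each), a log2 difference of -0.94 (edgeR adjusted p 0.000329). Mlc1, a membrane protein involved in astrocyte volume regulation, averaged 10.3 ± 7.12 CPM in D1 and 29.6 ± 7.55 CPM in D2 libraries (SD, n = 15 each), a log2 difference of -1.59 (edgeR adjusted p 1.80e-06).

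The junction genes, Gja1, Gjb6 and Cldn10, were lower in D1 libraries, 3 of 3, with a median log2 difference of -1.78. Gja1 encodes connexin 43, the main gap-junction protein of astrocytes, on chromosome 10, 56377330 to 56402513, plus strand. It stood at 36.3, 10.8, 10.3, 7.85 and 9.86 CPM in D1 Control and at 33.96, 39.999, 24.3, 45.8 and 32.8 CPM in D2 Control. Here too a lone D1 pool, replicate 1, fell among the D2 pools. The log2 difference was -1.23 (SE 0.36, edgeR adjusted p 0.0306) in Control, -1.86 without D1 Control replicate 1 (edgeR adjusted p 0.000103) and -1.80 (SE 0.21, edgeR adjusted p 1.94e-07) averaged. Gjb6, connexin 30, averaged 2.14 ± 1.1998 CPM in D1 and 5.49 ± 1.39 CPM in D2 libraries (SD, n = 15 each). Cldn10, a claudin, averaged 1.42 ± 0.821 CPM in D1 and 4.96 ± 3.53 CPM in D2 libraries (SD, n = 15 each), with 17.1 CPM in D2 Susceptible replicate 1.

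All 6 metabolic genes were lower in D1 libraries with the states averaged, with a median log2 difference of -1.26. Glul encodes glutamine synthetase, which turns glutamate and ammonia into glutamine and is also made by oligodendrocytes, on chromosome 1, 153899944 to 153909723, plus strand. Its level was 472, 246, 228, 205 and 227 CPM in D1 Control and 547, 630, 488, 691 and 507 CPM in D2 Control, without overlap. The gene Teddm2 overlaps it with 3932 counts against 692677. The log2 difference of Glul was -1.05 (SE 0.18, edgeR adjusted p 0.000170) in Control and -1.15 (SE 0.10, edgeR adjusted p 5.24e-10) averaged. Aldoc encodes aldolase C of glycolysis, on chromosome 11, 78322968 to 78327781, plus strand. It stood at 124, 44.0, 36.3, 31.1 and 31.7 CPM in D1 Control and at 107, 136, 92.1, 136 and 94.4 CPM in D2 Control, with D1 Control replicate 1 inside the D2 range. Its log2 difference was -1.08 (SE 0.30, edgeR adjusted p 0.0245) in Control, -1.65 without that library (edgeR adjusted p 1.16e-05) and -1.38 (SE 0.18, edgeR adjusted p 8.14e-07) averaged.

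The other 4 metabolic genes were scarcer. Aldh1l1, a folate enzyme often used to mark astrocytes, averaged 3.98 ± 2.11 CPM in D1 and 8.14 ± 2.503 CPM in D2 libraries (SD, n = 15 each), a log2 difference of -1.04 (edgeR adjusted p 4.21e-05). Acsbg1, an acyl-CoA synthetase, averaged 5.43 ± 3.49 CPM in D1 and 16.3 ± 5.40 CPM in D2 libraries (SD, n = 15 each), a log2 difference of -1.65 (edgeR adjusted p 2.22e-06). Ppp1r3c, a targeting subunit that ties protein phosphatase 1 to glycogen, differed least of the 6, at -0.65 (edgeR adjusted p 0.000150). Fabp7, a brain fatty-acid binding protein of radial glia and astrocytes, differed by -1.38 (edgeR adjusted p 4.09e-06).

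Gfap, the intermediate filament protein by which astrocytes are most often stained, lies on chromosome 11, 102887336 to 102900912, minus strand. Its promoter is printed with that of Aldoc because these are members of different function, and both windows hold the inverted repeat TTCCNGGAA, a core of sites for STAT transcription factors. The windows run from 250 bases before to 50 bases after an annotated start in RefSeq's GRCm38.p6 annotation, 5′ to 3′ on the gene's strand, and the capitals mark that match. The window of Gfap is chr11:102897151-102897450, minus strand, and lies inside the gene span given above. Aldoc has 2 windows in the table, for 2 starts, and the one printed, chr11:78323948-78324247, plus strand, was chosen because it holds the match. It lies inside the gene span given above, and the window of the other start, which begins at 78322823, holds no match.
Gfap: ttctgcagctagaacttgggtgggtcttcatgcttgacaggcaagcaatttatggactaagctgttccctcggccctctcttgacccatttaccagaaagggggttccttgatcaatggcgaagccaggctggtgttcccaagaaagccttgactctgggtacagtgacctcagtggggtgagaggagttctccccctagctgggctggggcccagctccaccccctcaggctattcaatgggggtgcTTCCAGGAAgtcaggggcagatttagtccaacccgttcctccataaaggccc
Aldoc: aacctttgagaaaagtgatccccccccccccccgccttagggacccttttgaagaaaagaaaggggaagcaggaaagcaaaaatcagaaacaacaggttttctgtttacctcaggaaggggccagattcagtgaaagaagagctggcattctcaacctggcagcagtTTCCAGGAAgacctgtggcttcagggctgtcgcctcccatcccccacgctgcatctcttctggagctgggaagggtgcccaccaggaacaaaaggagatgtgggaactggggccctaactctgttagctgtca
Promoters of 29 of the 34 members were in the table (Aqp4, Atp1b2, Sox9, Clu and Sparcl1 were not). The repeat, read on either strand, was in at least 1 window of 3 of those 29 genes, Agt, Aldoc and Gfap, and of 1.35% of all 27025 genes (1.15% of all 32851 windows). A match is a description of the letters, not evidence of a bound site.

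In D1 Control, Gfap stood at 13.0, 4.72, 2.36, 2.60 and 1.92 CPM, in D1 Resilient at 2.08, 2.61, 2.58, 2.59 and 2.40 CPM, and in D1 Susceptible at 7.81, 3.67, 3.36, 5.86 and 6.25 CPM. In D2 Control it stood at 17.5, 18.8, 13.3, 13.1 and 15.6 CPM, in D2 Resilient at 19.4, 21.2, 22.9, 24.5 and 5.27 CPM, and in D2 Susceptible at 14.2, 8.71, 14.7, 16.9 and 13.8 CPM. The D1 and D2 libraries overlapped only through D1 Control replicate 1, D1 Susceptible replicates 1, 4 and 5, and D2 Resilient replicate 5, the last of which lay among the D1 values. The log2 difference was -1.66 (SE 0.39, edgeR adjusted p 0.00601) in Control, -2.41 without D1 Control replicate 1 (edgeR adjusted p 7.51e-06), and -1.99 (SE 0.23, edgeR adjusted p 8.70e-08) averaged.

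Of the 4 transcription regulators, Sox9, Gli3 and Id4 were lower in D1 libraries and Hes5 was not called, with a median log2 difference of -0.99. Sox9, a factor that sets and keeps astrocyte identity, lies on chromosome 11, 112782224 to 112787760, plus strand. It stood at 8.23, 4.56, 4.63, 4.36 and 4.25 CPM in D1 Control and at 10.1, 14.3, 10.5, 25.1 and 19.1 CPM in D2 Control, without overlap, and it reached 53.4 and 27.6 CPM in D2 Susceptible replicates 1 and 2. Its log2 difference was -1.60 (SE 0.35, edgeR adjusted p 0.00290) in Control and -1.92 (SE 0.20, edgeR adjusted p 1.54e-08) averaged. Id4, an inhibitor of basic helix-loop-helix factors that some neurons also express, lies on chromosome 13, 48261228 to 48266026, plus strand. Its level was 213, 253, 230, 285 and 242 CPM in D1 Control and 514, 522, 505, 552 and 407 CPM in D2 Control, and no D1 library (177 to 313 CPM) reached the lowest D2 library (403 to 870 CPM). The log2 difference of Id4 was -1.03 (SE 0.16, edgeR adjusted p 5.3e-05) in Control and -1.12 (SE 0.092, edgeR adjusted p 6.15e-11) averaged. Unlike most members, Id4 was not high in D1 Control replicate 1, and without that library its Control difference was -0.97 (edgeR adjusted p 0.000259). Hes5, a target of Notch signalling, differed by -0.64 (edgeR adjusted p 0.0510), and without D1 Control replicate 1 by -0.73 (edgeR adjusted p 0.0271). Gli3, a factor of hedgehog signalling, differed by -0.85 (edgeR adjusted p 0.00159), and the gene Gm6556 overlaps it with 1317 counts against 4917.

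The 3 cell-surface receptors were lower in D1 libraries, with a median log2 difference of -1.17. F3 encodes tissue factor, the trigger of blood clotting that astrocytes make in brain, on chromosome 3, 121723537 to 121735048, plus strand. It stood at 5.19, 3.39, 3.28, 2.64 and 2.65 CPM in D1 Control and at 7.96, 7.24, 6.80, 8.75 and 7.68 CPM in D2 Control. The pools of the classes did not overlap, and the spread within each was narrow. The log2 difference was -1.16 (SE 0.21, edgeR adjusted p 0.000374) in Control and -1.33 (SE 0.12, edgeR adjusted p 5.70e-10) averaged. Fgfr3, a receptor for fibroblast growth factors, averaged 4.23 ± 1.78 CPM in D1 and 9.32 ± 1.90 CPM in D2 libraries (SD, n = 15 each). Ntsr2, a low-affinity neurotensin receptor, averaged 9.62 ± 3.36 CPM in D1 and 17.8 ± 3.42 CPM in D2 libraries (SD, n = 15 each). S100b, a calcium-binding protein, was likewise lower in D1, at 14.998 ± 3.40 against 30.3 ± 13.9 CPM (SD, n = 15 each) and a log2 difference of -0.99 (edgeR adjusted p 2.69e-05).

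Mt1 and Mt2 encode metallothioneins, small cysteine-rich proteins that bind zinc and copper and that many cell types induce under glucocorticoids and metals. They are neighbours on chromosome 8, plus strand, Mt1 at 94179082 to 94180327 and Mt2 at 94172664 to 94173568, with 5513 bases between them. Their promoters are printed because the neighbours are regulated by metal response elements, whose core TGCACNC or TGCGCNC, on either strand, is in capitals. The windows are chr8:94178839-94179138 for Mt1 and chr8:94172368-94172667 for Mt2, plus strand, from the same RefSeq table.
Mt1: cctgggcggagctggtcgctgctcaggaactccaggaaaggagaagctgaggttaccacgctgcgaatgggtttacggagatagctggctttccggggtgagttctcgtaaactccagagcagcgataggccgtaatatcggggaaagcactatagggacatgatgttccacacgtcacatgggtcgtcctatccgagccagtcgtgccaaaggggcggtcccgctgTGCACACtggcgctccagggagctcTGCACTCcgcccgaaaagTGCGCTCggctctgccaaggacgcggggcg
Mt2: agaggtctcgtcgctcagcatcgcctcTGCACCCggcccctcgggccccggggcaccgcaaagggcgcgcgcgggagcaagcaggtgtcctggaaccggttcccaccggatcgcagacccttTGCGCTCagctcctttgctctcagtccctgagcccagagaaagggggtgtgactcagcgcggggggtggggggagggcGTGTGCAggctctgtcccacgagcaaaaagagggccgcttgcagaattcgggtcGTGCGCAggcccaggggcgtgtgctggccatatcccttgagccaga
The first core was in a window of 3 of 29 members (Kcnj10, Mt1 and Mt2) and of 14.2% of all genes (12.6% of all windows). The second was in a window of 9 of 29 members and of 17.0% of all genes (15.4% of all windows). Such short cores are frequent, and no binding was measured.

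Mt1 stood at 51.4, 40.4, 32.9, 31.1 and 28.9 CPM in D1 Control and at 73.7, 74.2, 68.3, 101 and 71.1 CPM in D2 Control. Every D2 Control pool was above every D1 Control pool. Its log2 difference was -1.07 (SE 0.16, edgeR adjusted p 3.2e-05) in Control and -0.83 (SE 0.092, edgeR adjusted p 2.32e-08) averaged. Mt2 stood at 17.5, 10.1, 8.61, 6.52 and 9.03 CPM in D1 Control and at 22.3, 26.9, 21.9, 47.9 and 28.9 CPM in D2 Control, again without overlap. The log2 difference of Mt2 was -1.51 (SE 0.27, edgeR adjusted p 0.000452) in Control and -1.44 (SE 0.16, edgeR adjusted p 3.02e-08) averaged. Between the transcripts, 0 of 1272 words of 30 bases were shared, and the longest shared run was 20 bases. The gene Gm45774 overlaps Mt2 with 551 counts against 33205.

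The 5 secreted proteins were the most mixed: Apoe and Bcan were lower in D1 libraries, Sparcl1 was higher, and Clu and Agt were not called. Apoe, the main lipid carrier that astrocytes release, which microglia also make, lies on chromosome 7, 19696109 to 19699188, minus strand. It stood at 348, 103, 60.4, 56.8 and 63.8 CPM in D1 Control and at 377, 413, 267, 484 and 301 CPM in D2 Control. D1 Control replicate 1 was at a D2 level for Apoe, and replicate 2 was also above the other 3. Its log2 difference was -1.54 (SE 0.41, edgeR adjusted p 0.0171) in Control, -2.36 without D1 Control replicate 1 (edgeR adjusted p 8.84e-06) and -1.77 (SE 0.24, edgeR adjusted p 2.16e-06) averaged. Bcan, the matrix proteoglycan brevican, averaged 14.9 ± 8.59 CPM in D1 and 36.1 ± 8.79 CPM in D2 libraries (SD, n = 15 each), a log2 difference of -1.31 (edgeR adjusted p 1.99e-06).

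Sparcl1, a matrix protein also called hevin that promotes synapse formation, lies on chromosome 5, 104079111 to 104113733, minus strand, and was the member with the opposite sign. It stood at 284, 227, 315, 247 and 296 CPM in D1 Control and at 218, 244, 198, 176 and 244 CPM in D2 Control, with overlap. In D1 Susceptible it stood at 238, 262, 268, 240.3 and 240.7 CPM, and in D2 Susceptible at 178, 127, 223, 180 and 211 CPM, without overlap. The log2 difference was 0.34 (edgeR adjusted p 0.123) in Control, 0.44 (edgeR adjusted p 0.0164) in Susceptible and 0.30 (SE 0.077, edgeR adjusted p 0.00374) averaged. Clu, which encodes the chaperone clusterin, averaged 149, 127 and 140 CPM in D1 Control, Resilient and Susceptible and 162, 165 and 129 CPM in the D2 groups, and its averaged log2 difference of -0.13 was not called (edgeR adjusted p 0.281). Agt differed by -0.84 without being called (edgeR adjusted p 0.141), on 0 to 54 counts per library and 579 in all.

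Other lists of cell-type genes moved with the 34 genes between D1 and D2 libraries, and their part in the difference was not tested. With the states averaged, 31 of 39 tested other astrocyte genes were lower in D1 and 0 were higher, with a median log2 difference of -1.11, among them Sdc4 at -1.83 and Sox2 at -1.12. Of 22 tested genes listed for reactive astrocytes, 10 were lower, such as Vim at -2.37, and 2 were higher, Serpina3n at 1.32 and S100a10 at 0.49, with a median of -1.02. Of the vessel genes, 14 of 14 endothelial genes were lower in D1, such as Pecam1, with a median of -3.07, and 8 of 10 mural cell genes, such as Rgs5, with a median of -3.02. Summed mural levels were 14.99 to 43.3 CPM in D1 and 105 to 281 CPM in D2 libraries, and summed endothelial levels were 413 to 510 and 542 to 950 CPM, both without overlap. Oligodendrocyte genes (11 of 15 lower, median -0.56, sums of 422 to 1144 CPM in D1 and 480 to 1986 CPM in D2) and microglia genes (8 of 13 lower, median -0.83, 33.1 to 114 and 39.8 to 105 CPM) differed by less and overlapped. In Control alone, 20 of 39 other astrocyte genes, 13 of 14 endothelial and 7 of 10 mural genes were lower in D1, and 0 of 15 oligodendrocyte and 0 of 13 microglia genes were called. These Control counts include D1 Control replicate 1, at an oligodendrocyte sum of 1144 CPM and a microglia sum of 114 CPM. The other D1 Control pools were at 566 to 683 and 33.8 to 43.7 CPM, and D2 Control at 713 to 1520 and 39.8 to 94.8 CPM. These lists were not tested without that library. With the states averaged again, oligodendrocyte precursor genes were lower for 5 of 9 (38.6 to 78.1 CPM in D1, 48.0 to 91.6 CPM in D2). Ependymal genes were lower for 3 of 8 (13.6 to 23.9 and 25.9 to 58.4 CPM). In the other direction, 8 of 10 pan-neuronal genes and 7 of 10 interneuron genes were higher in D1 and 1 of each was lower, with medians of 0.31 and 0.92, while 5 of 12 genes shared by both medium spiny classes were lower, with a median of -0.15.

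Within D1 Control, replicate 1 was the highest of the 5 pools for 31 of the 34 genes. Its level over the mean of the other 4 pools had a median of 2.45 across the genes, from 0.845 for Id4 to 4.90 for Apoe, with Mlc1 at 4.54 and Gfap at 4.49. The same library had the highest microglia sum of the D1 libraries, 114 CPM against 33.1 to 53.2 in the other 14, and the highest oligodendrocyte sum, 1144 CPM against 422 to 746. It also stood apart from its group on neuron genes, with a D2-neuron sum of 2254 CPM against 1331 to 1613, a D1-neuron sum of 1786 CPM against 2106 to 2395 and a pan-neuronal sum of 8493 CPM against 9497 to 10699. The part of other cells' RNA in its levels was not tested. D1 Resilient replicate 5 had a higher D2-neuron sum, 2753 CPM. Its summed level of the 34 genes, 1529 CPM, was the lowest, next to 1531 CPM in D1 Resilient replicate 3. Gene by gene it was the highest of its group for 12 of the 34 genes and the lowest for 3. Its sum of the other astrocyte genes, 947 CPM, was the highest of its group. In D2 Resilient, replicate 5 was the lowest of its group for 32 of the 34 genes, with a median ratio of 0.451 to the other 4, from 0.239 for Gfap to 0.898 for Slc4a4. D1 Susceptible replicate 1 was the highest of its group for 23 genes, with a median ratio of 1.47, and 54.9% of its counts fell on Gm42418, a gene that holds ribosomal RNA sequence. D2 Control replicate 4 was the highest of its group for 24 genes, with a median ratio of 1.32.

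Stress was examined within each neuron class, and for the 34 genes no comparison of states gave a call by edgeR. In D1, 0 of 34 were called for Resilient against Control, for Susceptible against Control and for Susceptible against Resilient, where 0.0% of all genes were called, higher or lower, in each. Unadjusted p-values under 0.05 were held by 11, 0 and 8 of the 34 genes, against 503, 465 and 675 of all genes, whose median log2 differences were -0.0086, -0.0115 and -0.0066. Both stress comparisons with Control share the D1 Control libraries, so their values are set side by side. DESeq2 and limma voom with quality weights also called 0 members in the 3 comparisons.

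In Resilient against Control, 31 of the 34 genes had a negative log2 difference, with a median of -0.52. Among them Aqp4 differed by -1.05 (SE 0.38, unadjusted p 0.00899 from edgeR, adjusted p 1), Gja1 by -1.01 (SE 0.36), Apoe by -1.03 (SE 0.40) and Gfap by -1.01 (SE 0.39). These values rested on D1 Control replicate 1. Without it the median was -0.14, Aqp4 differed by -0.46 (SE 0.33), Gja1 by -0.37 (SE 0.29), Apoe by -0.19 (SE 0.29) and Gfap by -0.24 (SE 0.31), and Mt1 was the 1 member with an unadjusted p under 0.05, at 0.44 (unadjusted p 0.00915 from edgeR). Genes of other cell types had the same sign in that comparison, none of them called: 15 of 15 oligodendrocyte genes (median -0.58, 10 with an unadjusted p under 0.05), 13 of 13 microglia genes (median -0.56, 4 such), 9 of 10 mural genes (median -0.55, 3 such) and 12 of 14 endothelial genes (median -0.24, 0 such) were negative. These counts include D1 Control replicate 1, and its part in them was not tested. Its microglia sum was 114 CPM, against 33.8 to 43.7 in the other Control pools and 33.1 to 41.9 in D1 Resilient. Its oligodendrocyte sum was 1144 CPM, against 566 to 683 and 422 to 605. Its mural sum was 39.02 CPM, against 18.14 to 23.02 and at most 17.81. Its endothelial sum, 464 CPM, lay within the other Control pools, at 413 to 473. That sum is set mostly by the abundant genes of the list. It averaged 450 CPM in D1 and 802 CPM in D2 libraries, while the median log2 difference of those genes was -3.07. For Apoe the D1 Resilient pools stood at 50.6, 58.9, 57.7, 62.8 and 80.2 CPM, around the 60.4, 56.8 and 63.8 CPM of the last 3 Control pools.

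In Susceptible against Control, 21 of the 34 genes had a negative log2 difference, with a median of -0.13, and without D1 Control replicate 1 the sign turned: 28 were positive, with a median of 0.30. Then 6 had an unadjusted p under 0.05, Gfap at 0.87 (SE 0.31), Apoe at 0.67 (SE 0.29), Mlc1 at 0.75 (SE 0.27), Ntsr2 at 0.38 (SE 0.18), Slco1c1 at 0.86 (SE 0.34) and Gli3 at 0.93 (SE 0.33), and 0 were called after adjustment. Susceptible against Resilient uses no Control library. There 30 of the 34 were positive, with a median of 0.40, led by Gfap at 1.11 (SE 0.40, unadjusted p 0.00949, edgeR adjusted p 0.990). In Gfap the D1 Resilient pools, at 2.08 to 2.61 CPM, were all below the D1 Susceptible pools, at 3.36 to 7.81 CPM. Apoe stood at 161, 60.4, 64.4, 125 and 154 CPM in D1 Susceptible, so that replicates 1, 4 and 5 were high and replicates 2 and 3 were at the Resilient level. The same replicates 1, 4 and 5 had D2-neuron sums of 2771, 2671 and 2372 CPM against 1120 and 1597 CPM in replicates 2 and 3. Their mural sums were 42.1, 43.3 and 33.0 CPM against 17.5 and 21.2 CPM. D1 Resilient replicate 5 had a D2-neuron sum of 2753 CPM with a mural sum of 17.8 CPM. Its summed level of the 34 genes, 1529 CPM, was the lowest of all libraries, next to 1531 CPM in D1 Resilient replicate 3. For 12 of the 34 genes it was the highest of its group, and for 3 the lowest. Genes of other cell types were also mostly positive from Resilient to Susceptible, none of them called: 15 of 15 oligodendrocyte genes (median 0.26), 13 of 13 microglia genes (median 0.34), 12 of 14 endothelial genes (median 0.62, 7 with an unadjusted p under 0.05) and 9 of 10 mural genes (median 1.14, 5 such). The part of these cells' RNA in the D1 values was not tested. With the 5 libraries named above left out, the median of the 34 genes was 0.25 and 27 were positive.

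**Figure D4:**
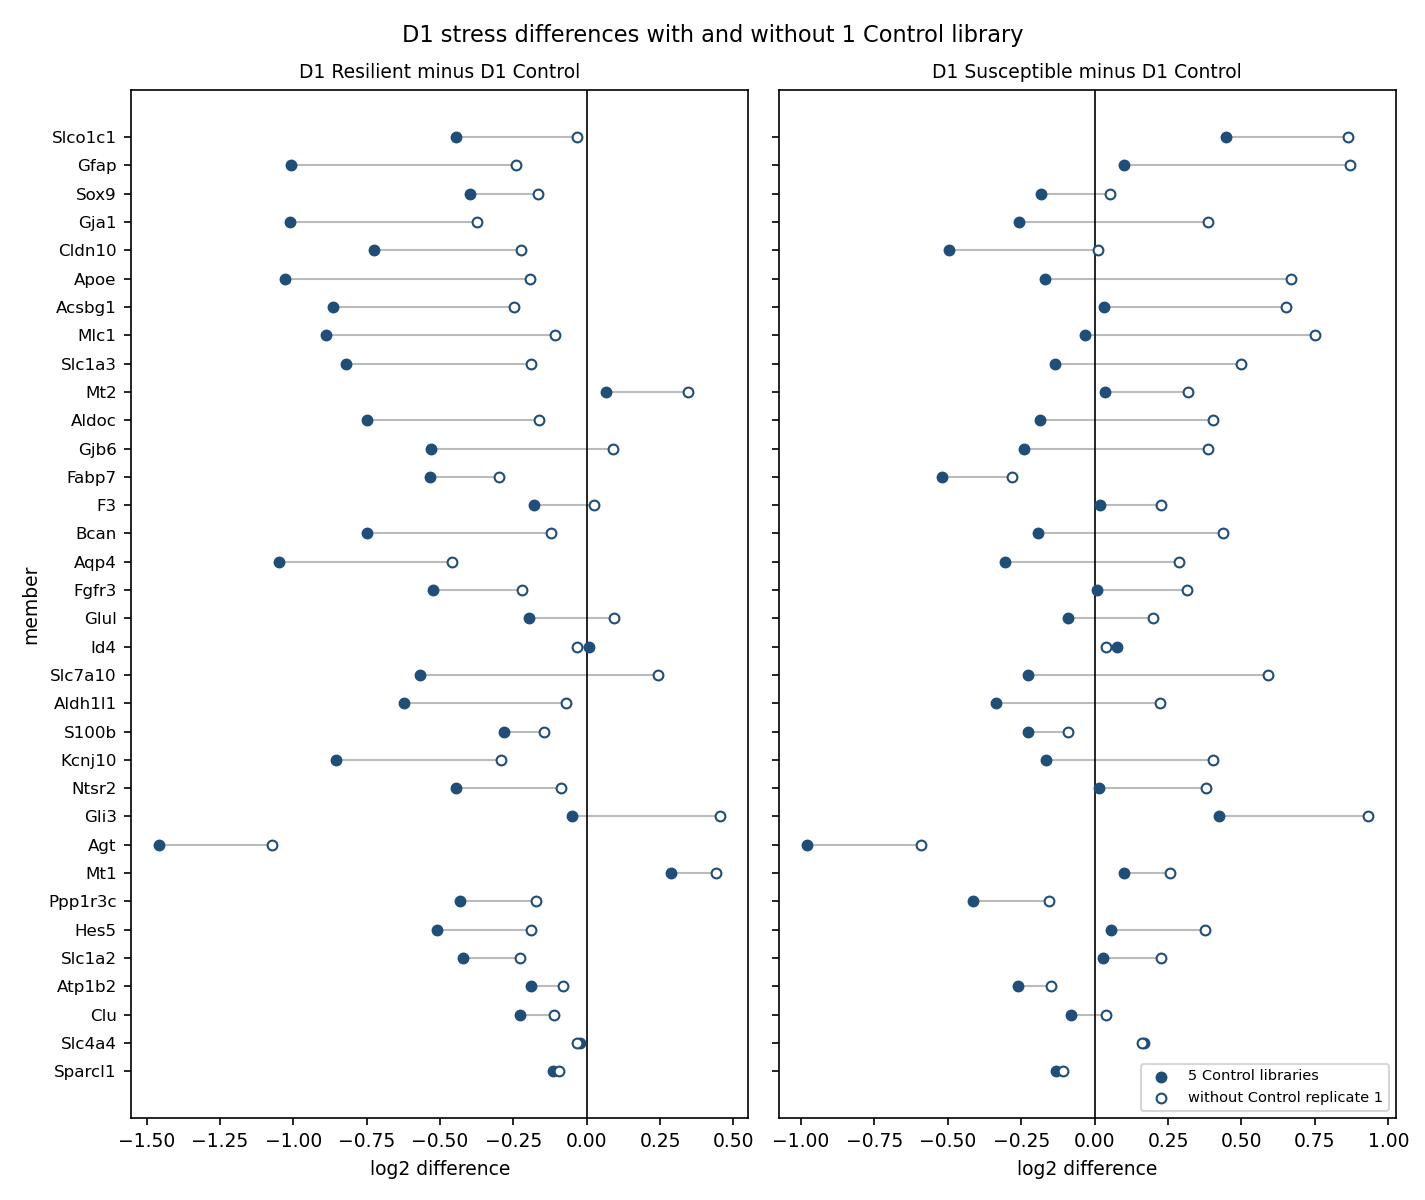
Log2 difference from D1 Control for each of the 34 genes in D1 Resilient and D1 Susceptible libraries, with all 5 Control pools and without D1 Control replicate 1 (4 pools). The median moves from -0.52 to -0.14 for Resilient and from -0.13 to 0.30 for Susceptible when that library is left out, and 0 of the 34 genes are called by edgeR in the comparisons with all pools.

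In D2, 0 of 34 were called for Resilient against Control, where 0.0% of all genes were called, with 17 genes positive and 17 negative. Mt1 was the 1 member with an unadjusted p under 0.05, at -0.32 (SE 0.16). Without D2 Resilient replicate 5, 26 were positive, with a median of 0.14. For Susceptible against Control 0 of 34 were called, where 0.00516% of all genes were called, 0.00516% lower and 0.0% higher. There the unadjusted p was under 0.05 for Id4 at 0.44 (SE 0.16), Clu at -0.33 (SE 0.15), Atp1b2 at -0.36 (SE 0.17) and Gli3 at 0.71 (SE 0.35), and the smallest adjusted p was 0.197 for Id4 by edgeR. For Susceptible against Resilient 0 of 34 were called by edgeR, where 0.0516% of all genes were called, 0.0258% higher and 0.0258% lower, and 6 had an unadjusted p under 0.05. Over all genes, 814, 3038 and 3693 had an unadjusted p under 0.05 in these 3 D2 comparisons. The medians of the 34 genes were -0.0008, -0.04 and -0.02, beside -0.0073, -0.0343 and -0.0338 over all genes. DESeq2 and limma voom called 0 members in the comparisons with D2 Control.

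Id4 and Sox9 led that last D2 comparison. Id4 stood at 870, 828, 532, 561 and 594 CPM in D2 Susceptible and at 635, 403, 464, 449 and 403 CPM in D2 Resilient, a log2 difference of 0.52 (edgeR adjusted p 0.0862). Sox9 stood at 53.4, 27.6, 12.5, 19.1 and 12.7 CPM in D2 Susceptible and at 16.7, 14.3, 14.0, 14.7 and 5.13 CPM in D2 Resilient, a log2 difference of 0.95 (edgeR adjusted p 0.128). In both genes D2 Susceptible replicates 1 and 2 were the highest of these 10 pools. Those pools had counts for 15822 and 16525 genes, against 19440 to 22375 in the other 28 libraries, and oligodendrocyte sums of 1986 and 1552 CPM. They were also the lowest of their group for Clu, at 90.1 and 84.0 CPM against 144 to 170, and for Atp1b2, at 41.6 and 37.5 CPM against 77.3 to 89.9. With the 5 libraries named above left out, the difference was 0.20 for Id4 and -0.03 for Sox9. Without D2 Susceptible replicate 3, by contrast, 4 members were called, among them Id4 at 0.60 (edgeR adjusted p 0.0218), and without replicate 5 of that group 2 were called. The shares of all genes called in those fits are not given here, so these counts cannot be read as particular to the members. DESeq2 called 1 member there, Id4 at 0.55 (DESeq2 adjusted p 0.0272), in a fit that called 976 of all genes, and limma voom called 0.

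Whether stress moved the genes differently in D1 and D2 was tested with interaction terms. None of the 34 passed the edgeR test for the Susceptible change, the Resilient change or the change from Resilient to Susceptible, where 0.0% of all genes were called in each. The medians of the log2 interactions (D1 minus D2) were -0.07, -0.49 and 0.43, and 0, 5 and 5 members had an unadjusted p under 0.05, beside medians of 0.029, -0.0111 and 0.046 and 1509, 967 and 2404 such genes over all genes. Gfap was the largest of the last 5, at 1.56 (edgeR adjusted p 0.278), and Mt1 was the 1 member of those with the opposite sign, at -0.50. The Susceptible and Resilient terms rested on D1 Control replicate 1. Without it the Susceptible median turned from -0.07 (15 of 34 positive) to 0.27 (28 positive, 4 with an unadjusted p under 0.05), and the Resilient median moved from -0.49 to -0.15, with 1 such member. Without D2 Resilient replicate 5 the Resilient median was -0.63 with 11 such members, and that of the change from Resilient to Susceptible was 0.53 with 14. With the 5 libraries named above left out the medians were 0.19, -0.29 and 0.46, and 0 members were called in each of these fits. DESeq2 and limma voom called 0 members in the 3 interactions.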

How the data were processed

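RNA bound to HA-tagged ribosomes was sequenced from 30 pools of nucleus accumbens, 5 in each of 6 groups. The deposited values are whole-number read counts per gene, which the authors made with HISAT2 and HTSeq on GRCm38 (mm10), per the submitters' processing notes. Libraries were made with the SMART-Seq v4 kit, per the labels' protocols. The sources used here do not give the strand setting or the annotation release. Reads that HTSeq assigned to no gene were 10.1% to 53.3% of a library's total and were left out of library sizes and tests.

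Symbols and positions were taken from GENCODE M21 by gene ID, which gave a symbol to 55154 of 55335 genes. Counts were scaled with TMM and tested with the quasi-likelihood F test of edgeR 4.0.16 in R 4.3.3, in 1 model of 6 groups over all 30 libraries. Of the genes, 19368 passed a filter on low counts (minimum count 10, minimum total 15) and 35967 were set aside. The 13 comparisons each had their p-values adjusted across the 19368 genes (Benjamini-Hochberg), with 0.05 as the threshold, and the common dispersion corresponded to a biological coefficient of variation of 41.4%. Adjusted p-values in the text are from this test unless DESeq2 or limma is named. CPM are counts per 1000000 of the TMM-scaled library.

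The fit was tested on simulated data with known changes, at a lower dispersion than that of these data and without outlying pools. That run therefore does not measure power or false calls for these libraries. Alternatives were DESeq2 1.42.0, limma 3.58.1 voom with quality weights, DESeq2 size factors, no filter, only the groups compared, a replicate block, and libraries left out; leaving out 5 libraries together was chosen after seeing the data. Promoter windows came from RefSeq's GRCm38.p6 table and were searched with pandas 2.3.3, and figures were drawn with matplotlib 3.10.9. The members and the other gene lists were chosen with earlier results of these data known. All 34 members could be named; full values by library were given for up to 8 with the smallest adjusted p in the Control or averaged comparison of D1 with D2 and for Aqp4, Gfap, Slc1a2, Slc1a3, Gja1, Aldoc, Apoe, Mt1 and Mt2, and up to 3 genes in each direction could be named from each other list. Sparcl1 was given in full after its values were seen. Male mouse and human data mentioned in the series' description were not analysed here.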

Additional observations from a re-analysis of the deposited data

Results flagged for a closer look

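The summed level of the 34 genes and the levels of 14 members given by library were examined in each of the 6 groups for a pool far from the other 4, by Dixon's ratio of the gap to the nearest pool over the group's whole range, with a critical value of 0.710 for 5 pools. Of 90 such groups of values, 21 passed, where chance gives about 5%. The tests are not independent, since 1 pool carries all genes.

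D1 Control replicate 1 accounted for 10 of them, each time as the highest pool. The ratio was 0.884 for the sum (2828 CPM), 0.909 for Aqp4, 0.903 for Sox9, 0.898 for Gja1, 0.894 for Slc1a3, 0.861 for Aldoc, 0.843 for Glul, 0.841 for Apoe, 0.747 for Gfap and 0.729 for Slc1a2. F3, Id4, Mt1, Mt2 and Slco1c1 did not pass there. D2 Resilient replicate 5 accounted for 6, as the lowest pool, with ratios of 0.881 for Slco1c1, 0.851 for the sum (1853 CPM), 0.769 for Sox9, 0.758 for Gja1, 0.737 for Gfap and 0.716 for Aqp4.

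The other 5 were spread over 4 pools. D2 Control replicate 4 was the highest for Mt1 (0.82, at 101 CPM) and Mt2 (0.731, at 47.9 CPM). D2 Control replicate 3 was the lowest for Aqp4 (0.76, at 6.84 CPM), D2 Resilient replicate 1 the highest for Id4 (0.737, at 635 CPM), and D2 Susceptible replicate 1 the highest for the sum (0.783, at 3306 CPM).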

How the results depend on the processing

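No call among the 28 of the averaged D1 minus D2 comparison was lost or reversed under any alternative run. The count of members called in the Control comparison of D1 with D2, 18 with all libraries, moved most: it was 30 with limma voom and quality weights, 11 in a fit of only the groups compared and 28 with the 5 libraries named in the report left out, and it ranged from 8 to 27 when 1 library was left out. Over all genes, limma voom called 28.4% there and the fit of only the groups compared 15.6%, against 8.3% in the main fit. In Resilient, Susceptible and averaged, limma voom called 31, 28 and 33 against 23, 25 and 28, and leaving out the 5 libraries gave 31, 27 and 33. Of all genes, limma voom called 17.6%, 17% and 39.8% there, against 6.65%, 23.9% and 29.3% in the main fit. For the fit without the 5 libraries, which were picked after seeing the data, the shares of all genes are not given here. Its larger counts can therefore not be read as particular to the members. The fit of only the groups compared gave 28 in Resilient and 19 in Susceptible, where 12.7% and 5.48% of all genes were called. For Susceptible against Resilient in D2, DESeq2 gave 1 against 0, where it called 5.05% of all genes. Leaving out 1 library gave 0 to 4 there, without the shares of all genes beside them. The other ranges with 1 library left out were 23 to 24 in Resilient, 19 to 26 in Susceptible and 28 to 30 averaged. Summed CPM then ranged from 1662.95 to 1974.27 (Control), 1561.8 to 1583.66 (Resilient) and 1761.05 to 1898.09 (Susceptible) among D1 libraries, and from 2888.34 to 3106.47 (Control), 2814.02 to 3183.4 (Resilient) and 2976.18 to 3066.83 (Susceptible) among D2 libraries. Without Apoe, Clu, Sparcl1, Mt1 and Mt2, which other cell types also express, the sums over 29 members were 1299.90, 1075.34 and 1286.12 CPM in D1 and 2145.79, 2105.52 and 2325.84 CPM in D2 (Control, Resilient, Susceptible), lower because fewer genes were summed. Those 29 still held Glul, Id4 and Slco1c1, which other cell types also express, so these sums were not restricted to astrocytes. Near 0, the Control difference of Slc1a2 changed sign without D1 Control replicate 2 or 4 or D2 Control replicate 4 (range with 1 library left out -0.25 to 0.021), that of Slc4a4 without D2 Control replicate 1 or 2 (-0.071 to 0.019), and Sox9 in D2 Susceptible against Resilient, 0.95 with all libraries, was -0.028 with the 5 libraries left out; the cause was not tested.

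Shared replicate numbers did not pair the libraries: the correlation of same-numbered deviations was -0.085 to 0.078, with 0 of 5 pairs over 0.1 in each of 9 comparisons. With the replicate block, 18, 23, 25 and 28 members were called in the Control, Resilient, Susceptible and averaged comparisons of D1 with D2, and 0 in the others. Of all genes, 7.73%, 6.35%, 21.5% and 27.5% were called in those comparisons of D1 with D2. Counts limit Agt most, with 3 counts worth 0.0430 to 0.304 CPM.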
